A study of Mus musculus with 6 samples.

Results

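Aminoacyl-tRNA synthetases join each amino acid to its tRNA, the step that fixes the genetic code in translation. The genes described here are the rows of the array whose symbol in the platform annotation follows the naming of this family. The rule found 35 genes among 19494, each with 1 row. Of these, 19 encode cytosolic enzymes or subunits and 16 encode mitochondrial enzymes, whose symbols end in 2. Tarsl2 was counted with the cytosolic genes because it is known as a second cytosolic threonyl-tRNA synthetase. Aars and Dars were not analysed here.

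Cells keep separate synthetases for the cytosol and the mitochondrion, all from nuclear genes, and Gars and Kars each serve both compartments. Several cytosolic enzymes sit together in the multi-tRNA synthetase complex, held by scaffold proteins. Many cytosolic synthetase genes respond to amino acid shortage through the transcription factor ATF4, and T cells are known to raise them on activation.

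The arrays measured regulatory T cells (Tregs) taken from the lamina propria of tumorous mouse colon. The mice carried a pair of reporters, with the genotype given as Foxp3-RFP x GPR15-GFP. Colorectal cancer had been induced in all of them by azoxymethane (AOM), which damages DNA, followed by dextran sulfate sodium (DSS), an irritant of the gut lining. RFP+ cells stained for CD4 were sorted as GPR15-GFP+ (titles GPR15P) or GPR15-GFP- (titles GPR15M), where GFP reports GPR15, a homing receptor of colonic T cells. There were 3 arrays per fraction, numbered 1, 5 and 6 in both. The sources used here give no age, strain, sex, pooling of animals or construction of the reporter alleles. Values are log2 expression as deposited, and a difference is samples labelled GPR15+ minus samples labelled GPR15-. With 3 arrays a fraction, precision is limited throughout.

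T cell markers fitted the label, with a median level at the 99th percentile of all genes, and 8 of the 9 measured Treg markers were brighter than the median gene; the exception was Il2ra, which encodes CD25. Foxp3 was not analysed here. Gpr15 itself lay lower in the samples labelled GPR15+, by -0.65 ± 0.22 (SE), with fractions that did not overlap (limma adjusted p = 0.773). Fractions apart with GPR15+ lower were seen for 9.17% of all genes. Whether labels were exchanged, or whether the row reads sequence missing from the reporter allele, was not tested. Every direction given here therefore rests on the labels alone. The arrays numbered 1 had a narrower spread of values (SD 1.63 on both) than the other arrays (SD 1.74 to 1.87), and the main counts are also given without them.

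The cytosolic synthetases lay mostly above 0 and the mitochondrial ones on both sides of it. Of 19 cytosolic genes, 16 lay higher in samples labelled GPR15+, with a median log2 difference of 0.25. Of 16 mitochondrial genes, 8 lay higher, with a median of 0.0052 on the same scale. Over all genes the share above 0 was 40.8% and the median difference was -0.06. No synthetase passed limma's test with Benjamini-Hochberg adjustment, and no gene of the array did (0.00% called; 1214 genes had an unadjusted p under 0.05). The lowest adjusted p of any synthetase was 0.773 without a block. With the title number as a block, 0 genes were called and the lowest synthetase value was an adjusted p of 0.334 from limma.

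The 3 pairs of equal number gave the same order of the compartments. The median difference of the cytosolic genes was 0.12 in pair 1, 0.25 in pair 5 and 0.27 in pair 6, with 14, 16 and 16 of 19 above 0. The background shares of all genes above 0 in these pairs were 46.9%, 41.9% and 42.6%. The mitochondrial medians were -0.13, 0.01 and 0.14, with 7, 8 and 9 of 16 above 0. Lying above 0 in every pair was seen for 11 cytosolic and 2 mitochondrial genes, against 13.4% of all genes. Aars2 was the 1 synthetase below 0 in every pair, against 23.6% of all genes. The cytosolic median was 0.12 when GPR15- replicate 1 was left out. Leaving out GPR15- replicate 5 gave 0.40, and leaving out GPR15+ replicate 5 gave 0.14. Without both arrays numbered 1 the cytosolic median was 0.26 (17 of 19 above 0) and the mitochondrial median 0.12 (10 of 16 above 0).

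**Figure D1:**
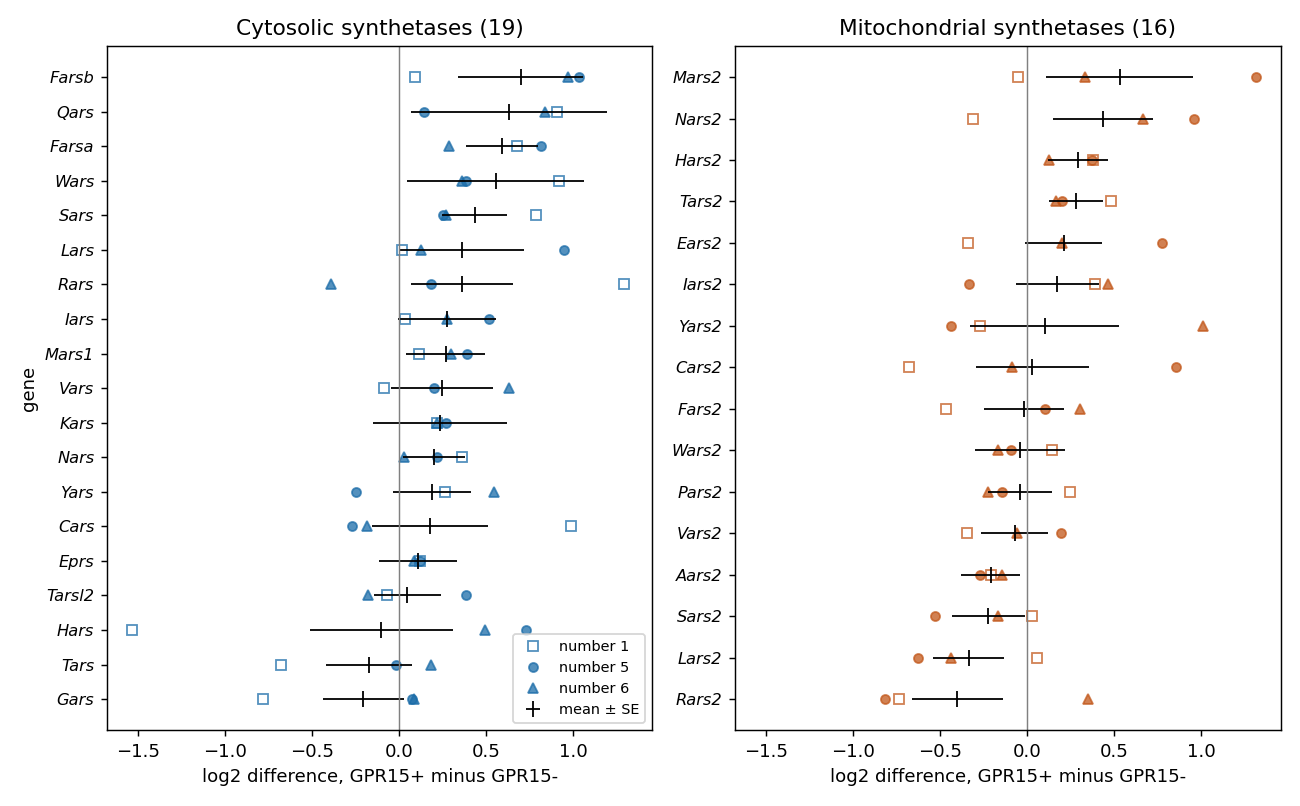
Log2 difference (samples labelled GPR15+ minus GPR15-, x axis) of each cytosolic (left, 19 genes) and mitochondrial (right, 16 genes) synthetase. Symbols are the pairs numbered 1, 5 and 6, and the black tick with its bar is the mean ± limma's SE. Of the cytosolic means 16 lie right of 0, from 0.05 to 0.70, and of the mitochondrial means 8 do.

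Phenylalanyl-tRNA synthetase is built from the products of Farsa, the catalytic subunit, and Farsb, and both genes stood among the largest differences. Farsa lay at 7.44, 7.68 and 8.04 in the samples labelled GPR15- numbered 1, 5 and 6, and at 8.12, 8.49 and 8.32 in those labelled GPR15+. The fractions did not overlap, with GPR15+ higher, which was so for 4.12% of all genes. The difference was 0.59 ± 0.21 (SE), or 1.51-fold, and did not pass (limma adjusted p = 0.773). Farsb lay at 4.94, 5.27 and 5.40 in GPR15- and at 5.03, 6.30 and 6.37 in GPR15+. Only the arrays numbered 5 and 6 parted here: the pair numbered 1 differed by 0.09 and the others by 1.03 and 0.97. The mean difference of Farsb was 0.70 ± 0.36 (SE), or 1.62-fold (limma adjusted p = 0.773). Without both arrays numbered 1 it was 1.00, with an adjusted p of 0.0803 from limma. Of the values with 1 array left out, the lowest was 0.47, when GPR15+ replicate 6 was dropped, and the highest 1.14, when GPR15+ replicate 1 was dropped.

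Sars, which charges the serine tRNAs, was the other of 2 cytosolic genes whose fractions did not overlap. GPR15+ was higher in both, as for 4.12% of all genes. It lay at 8.15, 8.45 and 8.20 in GPR15- and at 8.94, 8.70 and 8.47 in GPR15+, in the order 1, 5, 6. The gap between the fractions was small, with the lowest GPR15+ value (8.47) just above the highest GPR15- value (8.45). Sars differed by 0.44 ± 0.19 (SE), or 1.35-fold (limma adjusted p = 0.773), and by 0.26 without both arrays numbered 1.

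Qars and Wars differed more between title numbers than between fractions. Qars, the glutaminyl-tRNA synthetase of the multi-synthetase complex, lay at 7.42, 9.43 and 8.94 in GPR15- and at 8.33, 9.58 and 9.78 in GPR15+. Wars, the tryptophanyl-tRNA synthetase, lay at 5.83, 7.72 and 6.96 in GPR15- and at 6.75, 8.11 and 7.32 in GPR15+. For both genes the fractions overlapped, the arrays numbered 1 were lowest in each fraction, and GPR15+ was higher in each pair. The mean differences were 0.63 ± 0.56 (SE) for Qars and 0.56 ± 0.51 (SE) for Wars. With the title number as a block these SEs were 0.20 and 0.18. Without GPR15- replicate 1 the differences were 0.04 and 0.05. Qars differed by 0.49 and Wars by 0.37 when both arrays numbered 1 were left out.

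**Figure D2:**
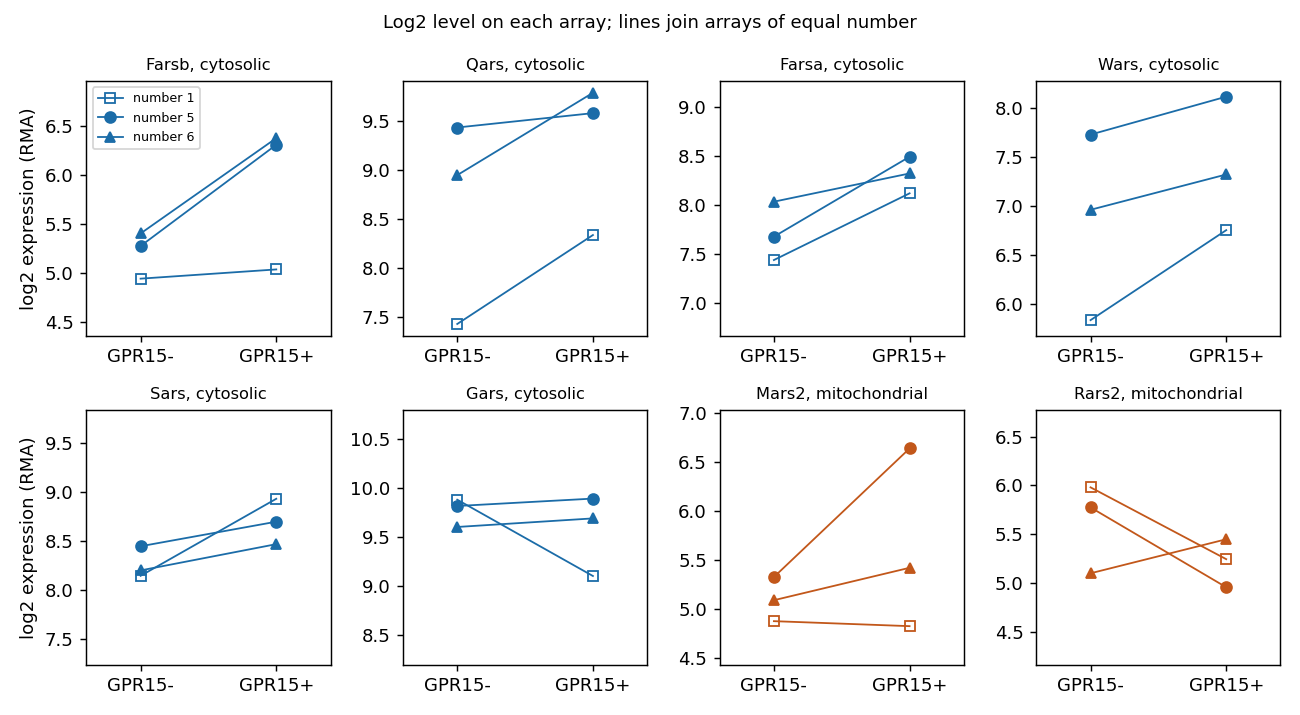
Log2 expression (y axis, each panel spanning the same number of log2 units) of 8 synthetases on each array, by fraction, with lines joining arrays of equal number. The lines of Farsb, Qars, Farsa, Wars and Sars go up in all 3 pairs, and those of Gars, Mars2 and Rars2 do not share a direction.

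Without a block, 2 of 35 synthetases (Farsa and Sars, 5.71%) had an unadjusted p under 0.05 in limma, against 6.23% of all genes. With the block, 5 did (Farsa, Farsb, Qars, Wars and Sars, 14.3%), all cytosolic and all above 0, against 12.4% of all genes. Both shares over the 35 genes were near the background. By compartment, the share of the 19 cytosolic genes was 10.5% without the block and 26.3% with it. That of the 16 mitochondrial genes was 0% in both fits. Leaving out single arrays moved the count of synthetases found without a block. Dropping GPR15- replicate 1 gave 0 members (3.93% of all genes), and dropping GPR15+ replicate 5 gave 0 as well (3.43%). Dropping GPR15- replicate 5 gave 1 (4.23%), dropping GPR15+ replicate 6 gave 1 (3.43%) and dropping GPR15+ replicate 1 gave 8 (22.3%). Without both arrays numbered 1 it was 8, against 21% of all genes. Those 8 were Farsa, Farsb, Qars, Hars, Vars, Ears2 and Nars2 above 0 and Lars2 below 0.

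Within the multi-tRNA synthetase complex, 7 enzyme genes were measured and all 7 lay above 0, with a median difference of 0.28. Of these, 6 did so in every pair. They were Eprs (0.11), whose product charges both glutamate and proline tRNAs, Kars (0.23), Mars1 (0.27), Iars (0.28), Rars (0.36), Lars (0.36) and Qars (0.63). Rars was the exception by pair, at 1.29, 0.19 and -0.39 for the numbers 1, 5 and 6, and it lay at -0.10 without both arrays numbered 1. Kars differed by 0.22, 0.27 and 0.22 and Eprs by 0.12, 0.12 and 0.09, the closest agreement between pairs among the complex genes. Lars rested on pair 5, at 0.95 against 0.015 and 0.13 in pairs 1 and 6, and was 0.00058 without GPR15+ replicate 5. Leaving out a single array turned Kars to -0.11 (without GPR15- replicate 1) and Eprs to -0.059 (without GPR15+ replicate 1). When both arrays numbered 1 were left out, Kars lay at 0.24 and Eprs at 0.10. The 12 cytosolic genes outside the complex had a median of 0.20, with 9 above 0.

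The scaffold genes of the complex did not all share this direction. Aimp2 lay at 8.60, 8.60 and 8.80 in GPR15- and at 8.17, 8.32 and 8.33 in GPR15+. Its fractions did not overlap and GPR15+ was lower, as for 9.17% of all genes, by -0.39 ± 0.16 (SE; limma adjusted p = 0.773). Aimp1 differed by 0.34 and Eef1e1 by -0.25, both with overlapping fractions. In pairs 1, 5 and 6 Aimp1 lay at -0.26, 0.89 and 0.40 and Eef1e1 at -0.85, 0.03 and 0.07. When both arrays numbered 1 were left out, 2 of the 3 scaffold genes lay above 0, with a median of 0.05. Of the 3 scaffold genes 0 passed in either direction.

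By catalytic fold, 9 of 9 cytosolic class I enzymes lay above 0, with a median of 0.28 and a range from 0.18 (Cars) to 0.63 (Qars). Of 9 class II genes 6 did, with a median of 0.20. By count this order held in pair 1 only. Class I had 8, 7 and 7 of 9 above 0 in pairs 1, 5 and 6, and class II had 5, 8 and 8. By median it held in pairs 1 (0.27 against 0.09) and 6 (0.30 against 0.22) but not in pair 5 (0.20 against 0.27). With both arrays numbered 1 left out, the counts were 7 of 9 for class I and 9 of 9 for class II, and the medians 0.37 and 0.24. Class I enzymes carry a Rossmann-fold catalytic domain and class II enzymes an antiparallel sheet; Eprs holds a domain of each and was left out of both. The other class I genes were Yars (0.19), Vars (0.25), Wars and the complex members Mars1, Iars, Rars and Lars. Kars of the complex is a class II gene. Cars lay at 0.99 in pair 1 and at -0.27 and -0.18 in pairs 5 and 6, so its place above 0 rested on the arrays numbered 1. Yars lay at 0.27, -0.25 and 0.55, and Vars at -0.08, 0.20 and 0.63. The class II gene Nars, for asparagine, lay above 0 in each pair, at 0.36, 0.22 and 0.03, and Tarsl2 differed by 0.05.

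The 3 cytosolic genes below 0 were all class II, and all were lowest in pair 1. Gars, the glycyl-tRNA synthetase, lay at 9.88, 9.81 and 9.60 in GPR15- and at 9.10, 9.89 and 9.69 in GPR15+, a difference of -0.21 ± 0.23 (SE). GPR15+ replicate 1 stood alone below the other 5 arrays. Gars differed by 0.02 without that array. Hars, for histidine, differed by -1.53 in pair 1 and by 0.73 and 0.50 in pairs 5 and 6. Tars, for threonine, differed by -0.68, -0.02 and 0.18. Without both arrays numbered 1 these genes lay at 0.08 (Gars), 0.61 (Hars) and 0.08 (Tars), 17 of 19 cytosolic genes lay above 0 against 40.7% of all genes, and Cars and Rars lay below.

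Among the mitochondrial enzymes, Tars2 was the 1 gene whose fractions did not overlap, with GPR15+ higher, as for 4.12% of all genes. It lay at 7.28, 7.46 and 7.42 in GPR15- and at 7.76, 7.65 and 7.58 in GPR15+, a difference of 0.28 ± 0.16 (SE; limma adjusted p = 0.773). Hars2 also lay above 0 in each pair, at 0.38, 0.37 and 0.13. In the RefSeq gene table Hars2 neighbours Hars, whose pairs disagreed in sign.

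The mitochondrial methionine enzyme Mars2 had the largest difference of its group, at 0.53 ± 0.42 (SE). It lay at 4.88, 5.33 and 5.09 in GPR15- and at 4.83, 6.64 and 5.43 in GPR15+. A single array, GPR15+ replicate 5, stood more than 1 log2 unit above the rest, and the difference was 0.026 with that array left out. It was 0.82 when both arrays numbered 1 were left out. Nars2 differed by -0.31 in pair 1 and by 0.96 and 0.66 in pairs 5 and 6, a mean of 0.44 ± 0.29 (SE), and by 0.81 without both arrays numbered 1.

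The lowest mitochondrial gene was Rars2, at -0.40 ± 0.26 (SE). It lay at 5.98, 5.78 and 5.10 in GPR15- and at 5.25, 4.96 and 5.45 in GPR15+, so pair 6 went the other way, and the difference was -0.23 without both arrays numbered 1. Lars2 differed by 0.06, -0.63 and -0.44, and Sars2 by 0.03, -0.53 and -0.17, both lower in pairs 5 and 6. Aars2 lay at 7.51, 7.37 and 7.20 in GPR15- and at 7.30, 7.10 and 7.05 in GPR15+, with a difference of -0.21 ± 0.17 (SE). Fars2, Wars2, Pars2, Vars2 and Cars2 had mean differences between -0.071 and 0.030, with pairs on both sides of 0. Cars2, for cysteine, lay at -0.68, 0.85 and -0.09 and Fars2, for phenylalanine, at -0.46, 0.10 and 0.30. These genes lay, with both arrays numbered 1 left out, at 0.38 (Cars2), 0.20 (Fars2), 0.067 (Vars2), -0.13 (Wars2) and -0.18 (Pars2). Ears2 (0.21), Iars2 (0.17) and Yars2 (0.10) lay above 0 with pairs on both sides, and Ears2 was 0.49 without both arrays numbered 1.

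For 14 mitochondrial genes the difference was set against that of a single cytosolic gene of the same amino acid, with Eprs against both Ears2 and Pars2. Fars2 (-0.02) is not among the 14. Its cytosolic counterpart is built from the products of both Farsa (0.59) and Farsb (0.70), whose differences were larger than that of Fars2. The cytosolic difference was the larger in 9 of the 14, and the median of cytosolic minus mitochondrial difference was 0.13. Among the 14 it was widest for arginine (Rars 0.36 against Rars2 -0.40), leucine (Lars 0.36, Lars2 -0.34), serine (Sars 0.44, Sars2 -0.22) and tryptophan (Wars 0.56, Wars2 -0.04). The arginine genes, when both arrays numbered 1 were left out, lay at -0.10 and -0.23, close to each other, and the leucine genes at 0.54 and -0.53. In the values of all arrays the reverse held for threonine, at -0.17 for Tars and 0.28 for Tars2. It held too for histidine, at -0.10 for Hars and 0.29 for Hars2. Without both arrays numbered 1 the cytosolic difference was the larger in 8 of the 14. The order turned for histidine (Hars 0.61, Hars2 0.25), cysteine (Cars -0.23, Cars2 0.38) and tyrosine (Yars 0.15, Yars2 0.29).

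Difference and brightness were related over all genes, and the cytosolic genes were the brighter group. Their median level was 8.02 and that of the mitochondrial genes 7.16, against 6.61 for all genes, in log2 units. The median difference of all genes was -0.13 at levels from 5 to 6, -0.03 from 7 to 8 and 0.08 from 8 to 9. Between the first and the last of these bins the median went from -0.20 to 0.18 in pair 5 and from -0.16 to 0.12 in pair 6. In pair 1 it lay at -0.044 and -0.0091, with no such rise. In the bin from 7 to 8 the 6 cytosolic genes had a median of 0.22 and the 8 mitochondrial genes of 0.03. The cytosolic median was also the higher from 6 to 7, at 0.36 for 1 cytosolic and 0.03 for 3 mitochondrial genes. From 8 to 9 it was 0.44 for 5 cytosolic genes, against -0.12 for 2 mitochondrial genes. In the bin from 5 to 6 the order was the reverse, at 0.37 for 2 cytosolic and 0.44 for 3 mitochondrial genes. With the trend removed, 16 of 19 cytosolic genes lay above 0 with a median of 0.19, and 9 of 16 mitochondrial genes did with a median of 0.05. The share of all genes above 0 was then 45.9%. After quantile normalization, 16 cytosolic and 9 mitochondrial genes lay above 0, against 45.9% of all genes. Centring every array on its median gave 16 and 11, against 50.9% of all genes. Centring also moved the split of all genes at an unadjusted p under 0.05 in limma, from 544 higher and 670 lower to 777 and 397. The mitochondrial genes that changed sign under one of these scalings were Fars2, Wars2 and Pars2, and no cytosolic gene did.

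**Figure D3:**
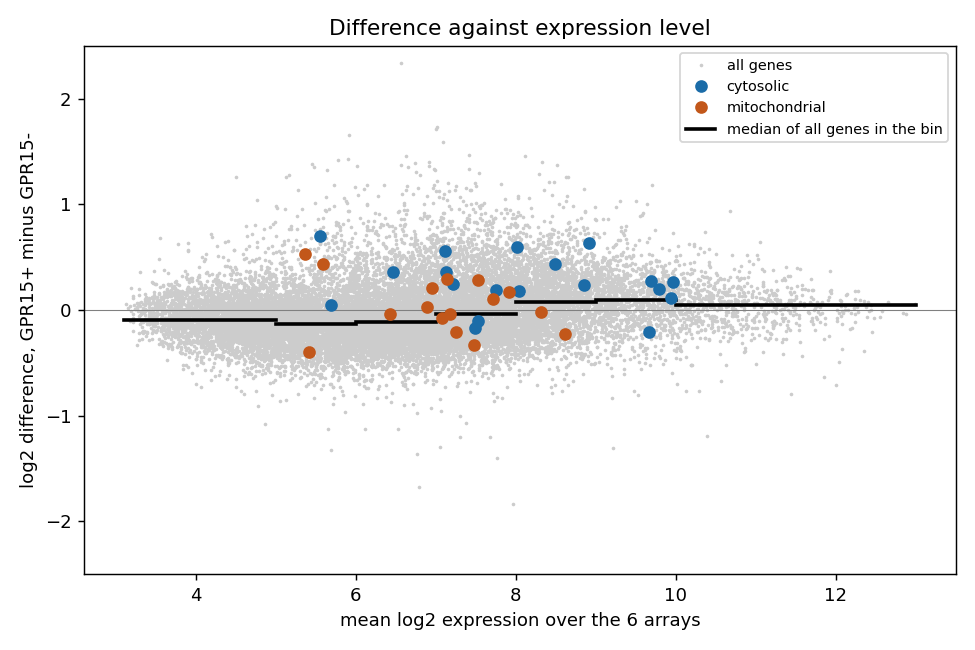
Log2 difference (y axis) against mean log2 expression over the 6 arrays (x axis) for 19494 genes (grey), cytosolic (blue) and mitochondrial (orange) synthetases. Black lines are the medians of all genes within bins of level, which go from -0.13 (5 to 6) to 0.10 (9 to 10).

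Promoter sequence was set beside these values for the 26 of 35 genes matched in the RefSeq promoter table (GRCm38.p6), 12 cytosolic and 14 mitochondrial. Each window held 250 bases before and 50 after a start. TGATGNAA, the core of the C/EBP-ATF response element to which ATF4 binds, was searched on both strands. It stood in 4 of 12 cytosolic windows (33.3%), 0 of 15 mitochondrial windows and 3.97% of all 32851 windows. The 4 genes were Gars, Tars, Iars and Yars, of which 2 lay above 0, with a median difference of 0.0096. All 8 matched cytosolic genes without these letters lay above 0, with a median of 0.35. Hars, the other cytosolic gene below 0 beside Gars and Tars, had no matched window. All 4 genes with the element lay above 0 when both arrays numbered 1 were left out, with a median of 0.12 against 0.30 for the other 8. The E-box CACGTG stood in the windows of Farsb, Iars and Tars (25% of cytosolic windows), in 1 of 15 mitochondrial windows (Ears2) and in 7.15% of all windows. The core of the NRF1 element stood in 0 synthetase windows and in 0.971% of all windows. A match is a run of letters and no evidence of binding.

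The 120 bases upstream of the start are shown for both phenylalanine subunits, which had large differences, for Gars and Tars, which lay below 0 and hold the element there, and for Asns, the asparagine synthetase gene. Capitals mark TGATGNAA on either strand or the E-box, and each sequence runs 5′ to 3′ on the gene's strand.
Farsa, chr8:84856866-84856985, plus strand: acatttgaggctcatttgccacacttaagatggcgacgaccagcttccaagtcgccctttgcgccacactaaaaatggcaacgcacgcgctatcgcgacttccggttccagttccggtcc
Farsb, chr1:78488898-78489017, minus strand: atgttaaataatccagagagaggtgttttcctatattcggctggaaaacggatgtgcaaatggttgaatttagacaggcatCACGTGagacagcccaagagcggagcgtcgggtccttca
Gars, chr6:55037881-55038000, plus strand: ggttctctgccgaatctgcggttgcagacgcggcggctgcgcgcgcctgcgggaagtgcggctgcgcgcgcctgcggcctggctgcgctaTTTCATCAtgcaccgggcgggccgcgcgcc
Tars, chr15:11399659-11399778, minus strand: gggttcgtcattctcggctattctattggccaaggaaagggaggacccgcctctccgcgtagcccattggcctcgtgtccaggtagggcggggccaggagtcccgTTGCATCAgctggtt
Asns, chr6:7693210-7693329, minus strand: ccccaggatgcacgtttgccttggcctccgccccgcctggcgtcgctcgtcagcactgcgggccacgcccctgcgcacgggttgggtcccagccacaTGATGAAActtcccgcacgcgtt
The element began at position -30 in Gars, -15 in Tars and -23 in Asns, and the E-box of Farsb at -39, counted from the start. Farsa held neither in these bases. In Iars and Yars the element lay after the start, at positions 8 and 4.

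Asns, which makes asparagine and is a textbook ATF4 target, lay at 9.22, 8.87 and 8.80 in GPR15- and at 8.16, 8.30 and 8.13 in GPR15+. The fractions did not overlap, with GPR15+ lower, as for 9.17% of all genes. The difference was -0.77 ± 0.18 (SE, limma adjusted p = 0.773). The 22 ATF4 response genes that are not synthetases were split, with 11 above and 11 below 0 and a median of -0.01, and 0 passed. Atf4 itself differed by 0.10. Ddit3, a stress transcription factor downstream of ATF4, differed by 0.36 and Cebpb by -0.32. Fractions did not overlap for Ddit3, with GPR15+ higher (4.12% of all genes), nor for Cebpb, with GPR15+ lower (9.17%).

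Lists of other genes that handle tRNA had small medians above 0 over all arrays, though those for maturation and editing lay below 0 in pair 1. The list of elongation and delivery factors had 9 of 12 members above 0 and a median of 0.18. Eef2, which moves the ribosome along, differed by 0.40, and Tsfm, the mitochondrial nucleotide exchange factor, by -0.37. The tRNA maturation list had 10 of 16 members above 0 and a median of 0.10. By pair its medians were -0.17, 0.37 and 0.36, with 4 of 16 members above 0 in pair 1. Rtcb, the ligase that joins spliced tRNA exons, lay above 0 in each pair, at 0.49, 0.50 and 0.89. The editing and recycling list had 4 of 5 members above 0 and a median of 0.03, with Ankrd16, a partner of alanyl-tRNA synthetase, at 0.46. Its median in pair 1 was -0.18. Mitochondrial translation factors had 5 of 8 above 0 and a median of 0.18, led by Gfm2 (0.57), Mrrf (0.53) and Mtif3 (0.46). No member of these 4 lists passed in either direction.

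Wars is known as an interferon-γ response gene in other cells. Of 13 other genes of that response 8 lay above 0, with a median of 0.11, and 0 passed. The guanylate-binding proteins Gbp2 and Gbp4 had fractions that did not overlap, at 0.96 ± 0.22 (SE) and 0.73 ± 0.17 (SE). GPR15+ was higher in both, as for 4.12% of all genes (limma adjusted p = 0.773 for each).

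Markers of other cells lay mostly below 0 in samples labelled GPR15+, as did 59.2% of all genes. The median difference of genes at levels from 6 to 7 was -0.11. Of 17 epithelial markers 14 lay below 0, with a median of -0.21 and medians by pair of -0.11, -0.32 and -0.29. Vil1 lay at -0.59 and Phgr1 at -0.51, and 7 of the 17 were brighter than the median gene. Their mean level per array ranged from 6.39 to 6.60 in GPR15- and from 6.11 to 6.45 in GPR15+. Macrophage markers, of which 3 of 10 were brighter than the median gene, had 8 below 0 and a median of -0.16, with mean levels from 6.10 to 6.41 in GPR15- and from 5.98 to 6.53 in GPR15+. Cybb, an oxidase subunit of phagocytes, had the largest difference of that list, and lay 1.17 above 0. B and plasma cell markers, 3 of 9 brighter than the median gene, had 6 below 0 and a median of -0.19, with mean levels from 6.65 to 6.72 and from 6.36 to 6.55. By pair the B and plasma medians were 0.05, -0.08 and -0.26, with 5 of 9 above 0 in pair 1. T cell markers had 7 of 9 above 0 and a median of 0.14, at a median level of 11.1. Their medians in pairs 1, 5 and 6 were 0.09, 0.11 and 0.11. All genes brighter than 10 had a median difference of 0.05, and -0.10, 0.13 and 0.10 by pair. Treg markers did not share the direction of the T cell markers, with 4 of 9 above 0 and a median of -0.06. By pair the Treg medians were 0.03, -0.06 and 0.01. The part of other cells in the synthetase values was not tested, and in sorted bulk RNA fewer cells of a type and less RNA per cell cannot be told apart.

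**Figure D4:**
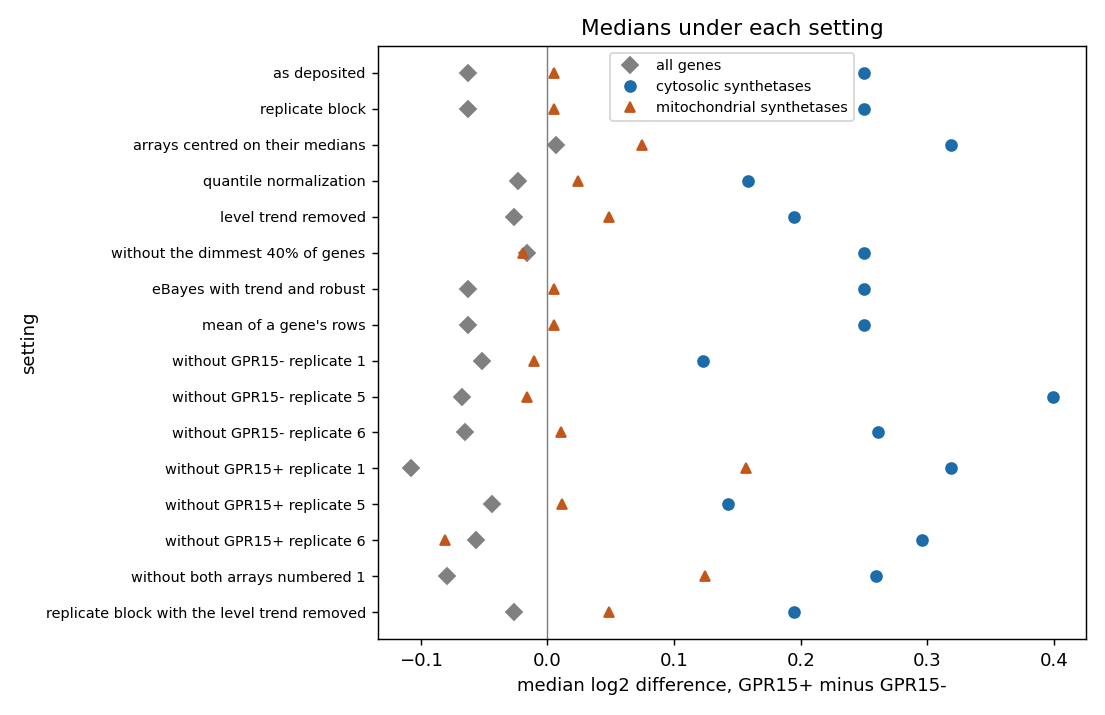
Median log2 difference (x axis) of the cytosolic synthetases (circles), the mitochondrial synthetases (triangles) and all genes (diamonds) under each setting (y axis). The cytosolic median ranges from 0.12 to 0.40 and lies right of 0 in every setting plotted, and the mitochondrial median lies on both sides of 0.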

How the data were processed

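Expression was measured on 6 one-colour Affymetrix arrays, 3 per fraction, from 2 to 10 ng of total RNA labelled with biotin, per the labels' protocols. The authors deposited log2 values per row, made with RMA per the submitters' processing notes; the sources used here name no software version, detection calls or genome build.

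Of 22142 rows, 19527 had 1 gene symbol in the platform annotation, 0 several and 2615 none. For 33 genes with several rows (none of them synthetases) the row with the highest mean was used, leaving 19494 genes. Groups were taken from the titles. The main test was limma's moderated test (limma 3.58.1, R 4.3.3) without a block. P-values were adjusted across the whole table by Benjamini-Hochberg, with a threshold of 0.05, and SEs are limma's. The script was tested on simulated data of the same size without pairing, where it recovered 42% of genes changed by 1 log2 unit and 99% of those changed by 2. An exact permutation test of 3 against 3 cannot go below p = 0.1.

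Equal numbers were treated as pairs, because deviations from the fraction means correlated by more than 0.1 for each (0.567 for number 1, 0.381 for 5, 0.319 for 6). GPR15- replicate 6 with GPR15+ replicate 5 gave 0.315 and GPR15- replicate 5 with GPR15+ replicate 6 gave 0.213, so the values hardly part 5 from 6. Deviations cancel out over the arrays of a fraction, so a departure shared by the arrays numbered 1 also raises the values among 5 and 6. The check therefore cannot decide whether the numbers 5 and 6 mark pairs. The labels do not say whether they mark animals, so p-values measure the spread between these samples only.

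The synthetases and all gene lists were chosen with earlier results of these data known. Values on every array are given for synthetases with an unadjusted p under 0.05 with or without the block and for the highest and lowest of each compartment; Those of Tars2, Aars2, Asns and Aimp2 were added after their values were seen. From each list up to 4 genes with the smallest p were named, and Atf4 and Il2ra outside that rule. Promoter windows came from RefSeq, and the motifs and printed windows were chosen after the differences were seen. Alternatives were the block, centring, quantile normalization, removal of the level trend, a filter on dim genes, another variance model, the mean of a gene's rows, and arrays left out.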

Additional observations from a re-analysis of the deposited data

How the results depend on the processing

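Under all 15 alternatives 0 genes were called by limma after adjustment; the count at an unadjusted p under 0.05 was 1214 as deposited, 2411 with the replicate block, 4101 without both arrays numbered 1, and from 668 to 4351 with 1 array left out. The cytosolic median stayed above 0 throughout, at 0.16 after quantile normalization and from 0.12 to 0.40 with 1 array left out. The mitochondrial median was -0.019 without the dimmest 40% of genes, where fewer genes entered, and from -0.081 to 0.16 with 1 array left out. The count of synthetases at an unadjusted p under 0.05, 2 as deposited, was 5 with the replicate block, 4 with the block and the level trend removed (chosen after seeing the data; 10.8% of all genes), 8 without both arrays numbered 1, and from 0 to 8 with 1 array left out. It was 1 after quantile normalization (5.45% of all genes), with the level trend removed (5.51%), without the dimmest genes (6.1%), and with a trend and robust variance model (6.12%). Gars turned from -0.21 to 0.082 without both arrays numbered 1 and lay between -0.37 and 0.024 with 1 array left out. The cause of these changes was not tested. The replicate block changed no call after adjustment, and added Farsb, Qars and Wars to the synthetases at an unadjusted p under 0.05 in limma. Detection calls were not used here, so signal over background is unknown for the dim genes Farsb, Mars2, Nars2, Rars2 and Tarsl2.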
